A study of Mus musculus with 6 samples.

Results

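The 10 genes *Cd2bp2*, *Irak2*, *Peg10*, *Plec*, *Nlrp3*, *Trp53bp1*, *Smyd3*, *Cux1*, *Usp43* and *Cttnbp2* were followed transcript by transcript in the mouse cochlea. They were selected on the values described here: each has at least 1 transcript with counts in every sample of one genotype and next to none in the other, so the values of their transcripts in this contrast are given as a description, without a test. They are 10 of 51802 gene symbols and hold 99 of 128603 transcripts, of which 19 had no count in any sample. Bulk RNA was sequenced from cochleae of 2 months old wildtype mice (3 samples, numbered 3, 4 and 5) and of *Pou4f3(Δ/+)* littermates (3 samples, numbered 1, 2 and 3), all of the background written C57/BL6J in the labels. *Pou4f3(Δ/+)* mice carry 1 wildtype and 1 knock-in copy of *Pou4f3*, a short deletion with an added base change that reproduces a mutation of human dominant deafness. The wildtype mice carry no engineered allele, and the labels do not say how many animals or ears went into a sample. The p-values below measure the spread between these samples.

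Most mouse genes give rise to several transcripts that differ in where transcription starts, which exons are joined and where the RNA ends. When the exons differ within the coding sequence the proteins differ, and when they differ outside it the same protein is made from another RNA. Pou4f3 is a POU-domain transcription factor that hair cells need for their maturation and survival. A short-read count of a transcript is an estimate: a fragment compatible with more than 1 transcript is assigned to them in parts by a model. The counts below are such expected counts, and a transcript's share is its percent of the summed counts of the gene in that sample.

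Summed counts were 14295069 to 17696784 per sample, and every pair of samples differed by more than sampling noise (chi-square over genes of 6.90 to 24.3 for each degree of freedom). *Pou4f3* itself had 3.96, 4.998 and 5.16 CPM (counts scaled to the depth of the sample) in wildtype and 3.73, 6.36 and 3.50 in *Pou4f3(Δ/+)*, ranges that overlap. Summed counts cannot tell the knock-in copy from the wildtype copy, so this checks no label. *Pou4f3(Δ/+)* samples 1 and 2 stood apart on the first principal component of the gene sums (32.5% of the variance), at 23.2 and 40.2 against -21.5 to -11.7 for the other 4 samples. The counts of all-or-none transcripts, the gene sums and the genes whose shares parted are given below also without them. In bulk tissue fewer cells of a type and less RNA per cell cannot be told apart.

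A transcript was called all-or-none when every sample of one genotype had at most 3 counts and every sample of the other had at least 30. Of the 33310 transcripts with at least 30 counts in some sample, 9 met this rule with the counts in *Pou4f3(Δ/+)* (0.027%) and 14 with the counts in wildtype (0.042%). These lie in 22 of 15530 genes (0.142%). The 10 genes hold 9 of these 23 transcripts, and since they were chosen for such counts nothing is read from that share. Irak2-202, Peg10-203, Nlrp3-202, Cux1-204 and Cttnbp2-207 had counts in *Pou4f3(Δ/+)*. Plec-208, Plec-218, Trp53bp1-216 and Smyd3-201 had counts in wildtype. The member closest to the limit from inside was Cttnbp2-207, with a lowest count of 33.5. Just outside lay Usp43-201 (lowest count 27.5), Usp43-202 (lowest count 20.5) and Cd2bp2-203, whose highest *Pou4f3(Δ/+)* count was 3.001. Without *Pou4f3(Δ/+)* samples 1 and 2, which leaves that genotype with 1 sample, the rule asks less, so the same 9 met it by construction.

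**Figure D1:**
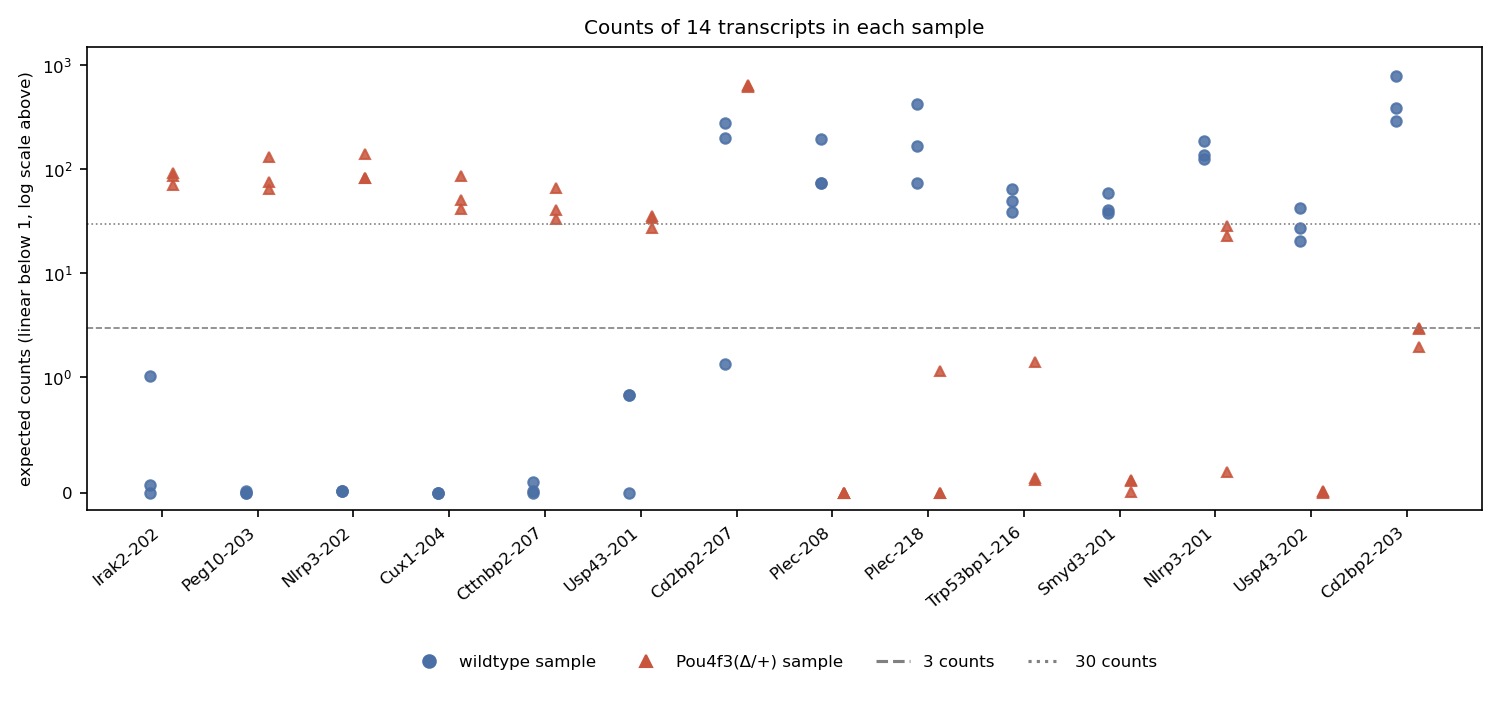
Expected counts (vertical axis, linear below 1 and logarithmic above) of 14 transcripts in each of the 3 wildtype samples (circles) and 3 *Pou4f3(Δ/+)* samples (triangles), with dashed and dotted lines at 3 and 30 counts. The first 5 transcripts lie above 30 counts in every *Pou4f3(Δ/+)* sample and at or below 1.03 in wildtype; Cd2bp2-207 has 1 wildtype sample at 1.33 and the other 2 at 199 and 281.

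*Nlrp3* and *Irak2* belong to innate immune signalling. Nlrp3 is a cytosolic sensor that assembles the inflammasome, in which caspase-1 is activated, and Irak2 is a kinase-family adaptor that acts downstream of Toll-like and interleukin-1 receptors. *Nlrp3* (chr11:59541568-59566956, + strand, GRCm38) exchanged most of its counts between 2 transcripts. Nlrp3-201 had 138, 126 and 189 counts in wildtype samples 3, 4 and 5 and 28.5, 22.7 and 0.18 in *Pou4f3(Δ/+)* samples 1, 2 and 3. Nlrp3-202 had 0.019, 0.016 and 0.018 counts in wildtype and 82.0, 82.3 and 139.5 in *Pou4f3(Δ/+)*. Neither transcript overlapped between the genotypes. Of the gene's counts, 0.13% were assigned to Nlrp3-201 in *Pou4f3(Δ/+)* sample 3, beside 22.8% and 21.6% in samples 1 and 2. As a share of the gene, Nlrp3-202 was 65.6, 78.4 and 96.2% in the 3 *Pou4f3(Δ/+)* samples, and the remaining transcript, Nlrp3-203, held 0 to 11.6% there. Both transcripts encode the same 3099 coding bases. Nlrp3-202 starts 1118 bases further downstream, in another first exon, and the pair differs by 124 bases found in Nlrp3-202 alone and 36 found in Nlrp3-201 alone. If fragments of 300 bases, the insert size given for the libraries, were spread evenly along these RNAs, 1.25 to 4.65 of the counts of a sample would come from fragments that fit only 1 of the pair.

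*Irak2* (chr6:113638467-113695026, + strand) exchanged a smaller share, and the pair differs inside the coding sequence. Irak2-202 had 0.071, 0 and 1.03 counts in wildtype and 85.9, 91.5 and 70.3 in *Pou4f3(Δ/+)*, and Irak2-201 had 415, 324 and 422 in wildtype and 365, 329.9 and 256 in *Pou4f3(Δ/+)*. The counts of Irak2-202 did not overlap, while those of Irak2-201 did: *Pou4f3(Δ/+)* sample 1 lay above wildtype sample 4. In shares both parted, with Irak2-202 at 0.079% ± 0.12 in wildtype (SD, n = 3) against 18.4% ± 1.38 (SD, n = 3) in *Pou4f3(Δ/+)*, and Irak2-201 at 88.2% ± 2.42 (SD, n = 3) and 70.3% ± 1.44 (SD, n = 3). Irak2-202 lacks exon 3 of Irak2-201, 144 bases or 48 codons at chr6:113665703-113665846, and the reading frame is kept. The exon is shown because it is what the exchange removes, in capitals between 20 bases of each neighbouring exon, 5′ to 3′, from the GENCODE M21 transcript sequences:
Irak2-201 exon 3: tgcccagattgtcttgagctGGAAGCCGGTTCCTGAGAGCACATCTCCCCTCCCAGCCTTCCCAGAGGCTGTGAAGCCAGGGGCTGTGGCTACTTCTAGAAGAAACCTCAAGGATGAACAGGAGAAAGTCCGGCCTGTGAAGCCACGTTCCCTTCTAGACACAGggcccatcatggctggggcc
For this pair 53.7 to 75.8 counts a sample would be expected from fragments that tell its members apart. A gene on the other strand, *Gm43963*, overlaps exons of *Irak2*, and the strand setting of the counting is not given in the sources used here.

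*Cd2bp2*, *Trp53bp1*, *Smyd3* and *Cux1* encode nuclear proteins. Cd2bp2 is a GYF-domain protein of the U5 small nuclear ribonucleoprotein of the spliceosome. The gene (chr7:127191660-127196050, - strand) exchanged one transcript for another, but not evenly across the wildtype samples. Cd2bp2-203 had 782, 294 and 389 counts in wildtype and 3.00, 1.96 and 2.94 in *Pou4f3(Δ/+)*. Cd2bp2-207 had 1.33, 281 and 199 counts in wildtype and 631, 642 and 615 in *Pou4f3(Δ/+)*. Cd2bp2-207 thus filled the *Pou4f3(Δ/+)* samples evenly but was itself next to absent from wildtype sample 3 and present in wildtype samples 4 and 5. The pair together held 52.2, 48.3 and 40.2% of the gene in wildtype and 45.1, 48.2 and 51.9% in *Pou4f3(Δ/+)*, overlapping ranges, and Cd2bp2-202, the third large transcript, held 38.9 to 50.5% and 39.4 to 46.9%. All 3 have the same coding sequence of 1026 bases. Cd2bp2-203 holds 49 bases that Cd2bp2-207 lacks, Cd2bp2-207 holds 43 that Cd2bp2-203 lacks, each has 1 junction of its own, and 12.3 to 17.7 counts a sample would be expected to tell them apart.

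Trp53bp1 gathers at DNA double-strand breaks and favours their repair by end joining. Most counts of the gene (chr2:121193281-121271407, - strand) were in Trp53bp1-202, with 1116, 1144 and 1290.3 in wildtype and 1391, 958 and 1151 in *Pou4f3(Δ/+)*. Trp53bp1-216, which the annotation lists as a target of nonsense-mediated decay, had 64.0, 38.7 and 49.0 counts in wildtype and 0.11, 1.39 and 0.12 in *Pou4f3(Δ/+)*. It made up 2.94 to 4.97% of the gene in wildtype. Trp53bp1-202 held 87.4% ± 1.04 of the gene in wildtype (SD, n = 3) against 94.0% ± 1.34 (SD, n = 3) in *Pou4f3(Δ/+)*, and these shares did not overlap. Trp53bp1-201, the form without a 150-base coding exon, had 44.0, 63.0 and 0 counts in wildtype and 0 in every *Pou4f3(Δ/+)* sample, so that wildtype sample 5 was as empty as the other genotype. Exons of *Trp53bp1* overlap *Tubgcp4* on the other strand.

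Smyd3 is a lysine methyltransferase with a SET and a MYND domain. In *Smyd3* (chr1:178951960-179518041, - strand) a transcript with no annotated coding sequence, Smyd3-201, had 59.0, 38.3 and 40.7 counts in wildtype and 0.0097, 0.11 and 0.11 in *Pou4f3(Δ/+)*. No other named transcript of the gene parted. The coding transcript Smyd3-204 had 90.7, 134 and 171 counts in wildtype and 134, 108 and 216 in *Pou4f3(Δ/+)*, and the noncoding Smyd3-206 had 42.0, 32.7 and 11.4 and 58.4, 69.9 and 32.0. Both overlapped between the genotypes, as did the short coding Smyd3-202 (39.5 to 60.2 and 32.8 to 49.2).

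Cux1 is a homeodomain transcription factor with CUT repeats, and the same gene also encodes CASP, a Golgi membrane protein, from other exons. In *Cux1* (chr5:136248135-136567490, - strand) the all-or-none transcript was a minor one. Cux1-204 had 0 counts in all 3 wildtype samples and 86.5, 50.5 and 41.1 in *Pou4f3(Δ/+)*, which is 1.47 to 2.95% of the gene. The large transcripts overlapped between the genotypes: Cux1-211 held 39.9 to 46.3% in wildtype and 40.4 to 44.5% in *Pou4f3(Δ/+)*. Cux1-201 held 36.4 to 41.8% and 39.1 to 42.7%, and Cux1-207 held 6.21 to 19.3% and 7.27 to 11.0%, the highest of all 6 samples being wildtype sample 5. Within the coding sequence Cux1-204 has a stretch of 306 bases, 102 codons, at chr5:136313009-136313314 that Cux1-201 lacks. In turn it lacks 6 coding bases of Cux1-201 at chr5:136326933-136326938 and 66 bases, 22 codons, at chr5:136311495-136311560. The 66 bases are shown here in capitals between 20 bases on each side because they are the exon that Cux1-204 goes without:
Cux1-201 exon 16: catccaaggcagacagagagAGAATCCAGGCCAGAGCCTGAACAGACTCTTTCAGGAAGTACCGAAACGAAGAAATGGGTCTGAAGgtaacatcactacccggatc

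*Usp43* encodes a ubiquitin-specific protease, an enzyme that removes ubiquitin from proteins, and *Peg10* is an imprinted, paternally expressed gene derived from a retrotransposon. *Usp43* (chr11:67854523-67922153, - strand) was the gene with the fewest counts. Usp43-202 had 27.0, 20.5 and 42.5 counts in wildtype and 0.016, 0.0013 and 0.0083 in *Pou4f3(Δ/+)*. Usp43-201 had 0.85, 0.00059 and 0.84 counts in wildtype and 34.1, 35.2 and 27.5 in *Pou4f3(Δ/+)*. In the assigned counts each of the 2 was at 0.85 or less in every sample of one genotype. The third transcript with counts, Usp43-203, held 16.0 to 41.6% of the gene in wildtype and 14.6 to 26.4% in *Pou4f3(Δ/+)*, overlapping ranges. Both exchanged transcripts have the same ends and 15 exons, and differ only by 15 coding bases, 5 codons, at the 3′ end of exon 12 of Usp43-201 (chr11:67879796-67879810). They are shown in capitals because they are the whole difference between the transcripts:
Usp43-201: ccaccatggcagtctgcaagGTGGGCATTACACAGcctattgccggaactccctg
About 1.47 to 3.13 counts a sample would be expected from fragments that cover this place. *9130017K11Rik* overlaps exons of *Usp43* on the other strand.

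Peg10 RNA is known for a programmed ribosomal frameshift that joins its 2 reading frames into a longer protein. *Peg10* (chr6:4747306-4760517, + strand) has 3 listed transcripts. Peg10-203 had 0.017, 0 and 0 counts in wildtype and 132, 64.0 and 75.5 in *Pou4f3(Δ/+)*. Peg10-201 had 79.2, 112 and 95.3 in wildtype and 72.6, 64.1 and 36.3 in *Pou4f3(Δ/+)*, and Peg10-202 had 60.8, 63.9 and 84.7 and 59.0, 64.0 and 30.2. The counts of Peg10-201 were lower in every *Pou4f3(Δ/+)* sample than in any wildtype sample, and those of Peg10-202 overlapped. Peg10-203 starts 100 bases downstream of Peg10-202 and is otherwise contained in it, so that no fragment of 300 bases of Peg10-203 fits it alone. For Peg10-201 the annotation leaves out 2 bases at chr6:4755331-4755332, within the sequence where the ribosome shifts frame, so that both frames are written as 1 coding sequence of 3015 bases. These 2 bases are shown in capitals with 20 bases on each side, because they and the last 3 bases are all that sets Peg10-201 apart from Peg10-202:
Peg10-202: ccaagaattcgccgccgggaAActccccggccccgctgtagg

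*Plec* and *Cttnbp2* encode proteins of the cytoskeleton. Cttnbp2 binds cortactin and is known from dendritic spines of neurons. In *Cttnbp2* (chr6:18366478-18514843, - strand) Cttnbp2-207 had 0, 0.090 and 0.015 counts in wildtype and 66.5, 40.9 and 33.5 in *Pou4f3(Δ/+)*. Cttnbp2-209, a retained-intron form, had 169.7, 157 and 145 counts in wildtype and 134, 98.6 and 71.4 in *Pou4f3(Δ/+)*, each of the latter below each of the former, although its shares of the gene overlapped. The full coding transcript Cttnbp2-201 had 63.5, 45.3 and 61.5 and 0.050, 34.2 and 46.0: it was next to absent from *Pou4f3(Δ/+)* sample 1 and present in samples 2 and 3. Cttnbp2-208 and Cttnbp2-203 overlapped between the genotypes, at 28.1 to 44.2% and 27.6 to 45.0% of the gene for the first and 7.72 to 12.9% and 8.30 to 13.6% for the second. Cttnbp2-207 alone holds a 40-base exon, its second, at chr6:18429120-18429159, shown in capitals between 20 bases of its neighbours because it marks this transcript, whose coding sequence is incomplete in the annotation:
Cttnbp2-207 exon 2: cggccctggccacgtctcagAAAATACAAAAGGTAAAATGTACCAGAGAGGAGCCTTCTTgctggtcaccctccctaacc

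Plec is a very large cytolinker that ties intermediate filaments to actin, microtubules and junctions, and its many first exons give the protein different amino termini that direct it to different places in the cell. *Plec* (chr15:76170974-76232574, - strand) had 22 listed transcripts, 7 of them named here. Plec-208 had 73.4, 196 and 74.0 counts in wildtype and 0 in every *Pou4f3(Δ/+)* sample, and Plec-218 had 424, 74.1 and 169 and 0, 0 and 1.14. Of the other named transcripts, Plec-217, Plec-206 and Plec-204 varied as much within a genotype. Plec-217 had 1318, 0.41 and 1748 counts in wildtype and 1465, 276 and 503 in *Pou4f3(Δ/+)*, and Plec-206 had 537, 553 and 1066 and 1.22, 1011 and 512. Plec-204 had 503, 621 and 0 and 376, 374 and 201. Next to no counts were assigned to Plec-217 in wildtype sample 4, to Plec-204 in wildtype sample 5 and to Plec-206 in *Pou4f3(Δ/+)* sample 1. Plec-201 (763, 963 and 508 in wildtype and 1523, 674 and 1450.3 in *Pou4f3(Δ/+)*) and Plec-207 (99.1, 333 and 24.8 and 149, 74.0 and 95.7) were present in every sample, with overlapping ranges.

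Grouped by the 3′ end of the first exon, the *Plec* transcripts with counts fell into 12 classes, and the picture changed for Plec-218. Plec-202 has the same first exon as Plec-218 and had 0, 0 and 83.2 counts in *Pou4f3(Δ/+)*, so that the class of Plec-202, Plec-212 and Plec-218 held 2.62% to 11.1% of the gene in wildtype and 0% to 2.85% in *Pou4f3(Δ/+)*, which overlap. The class of Plec-208 and Plec-216 held 1.93% to 6.95% in wildtype and 0% in *Pou4f3(Δ/+)*, and was the 1 class of the 12 that parted. The coding sequences of Plec-218, Plec-201 and Plec-206 differ in their first exons. The coding parts of these 3 exons are therefore shown in capitals, each followed by 20 bases of the shared second coding exon:
Plec-218 (chr15:76199549-76199660): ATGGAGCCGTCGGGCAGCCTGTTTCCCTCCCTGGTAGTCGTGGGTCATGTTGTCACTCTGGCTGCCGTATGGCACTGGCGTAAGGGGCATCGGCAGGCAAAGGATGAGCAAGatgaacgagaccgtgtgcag
Plec-201 (chr15:76195424-76195535): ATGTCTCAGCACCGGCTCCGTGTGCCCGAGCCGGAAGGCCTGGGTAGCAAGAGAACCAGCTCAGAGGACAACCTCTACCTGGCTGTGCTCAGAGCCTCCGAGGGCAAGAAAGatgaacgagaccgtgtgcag
Plec-206 (chr15:76229358-76229442): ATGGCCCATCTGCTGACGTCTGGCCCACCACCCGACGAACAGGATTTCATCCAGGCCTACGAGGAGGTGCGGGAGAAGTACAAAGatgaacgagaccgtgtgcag
*Parp10* overlaps exons of *Plec* on the same strand.

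**Figure D2:**
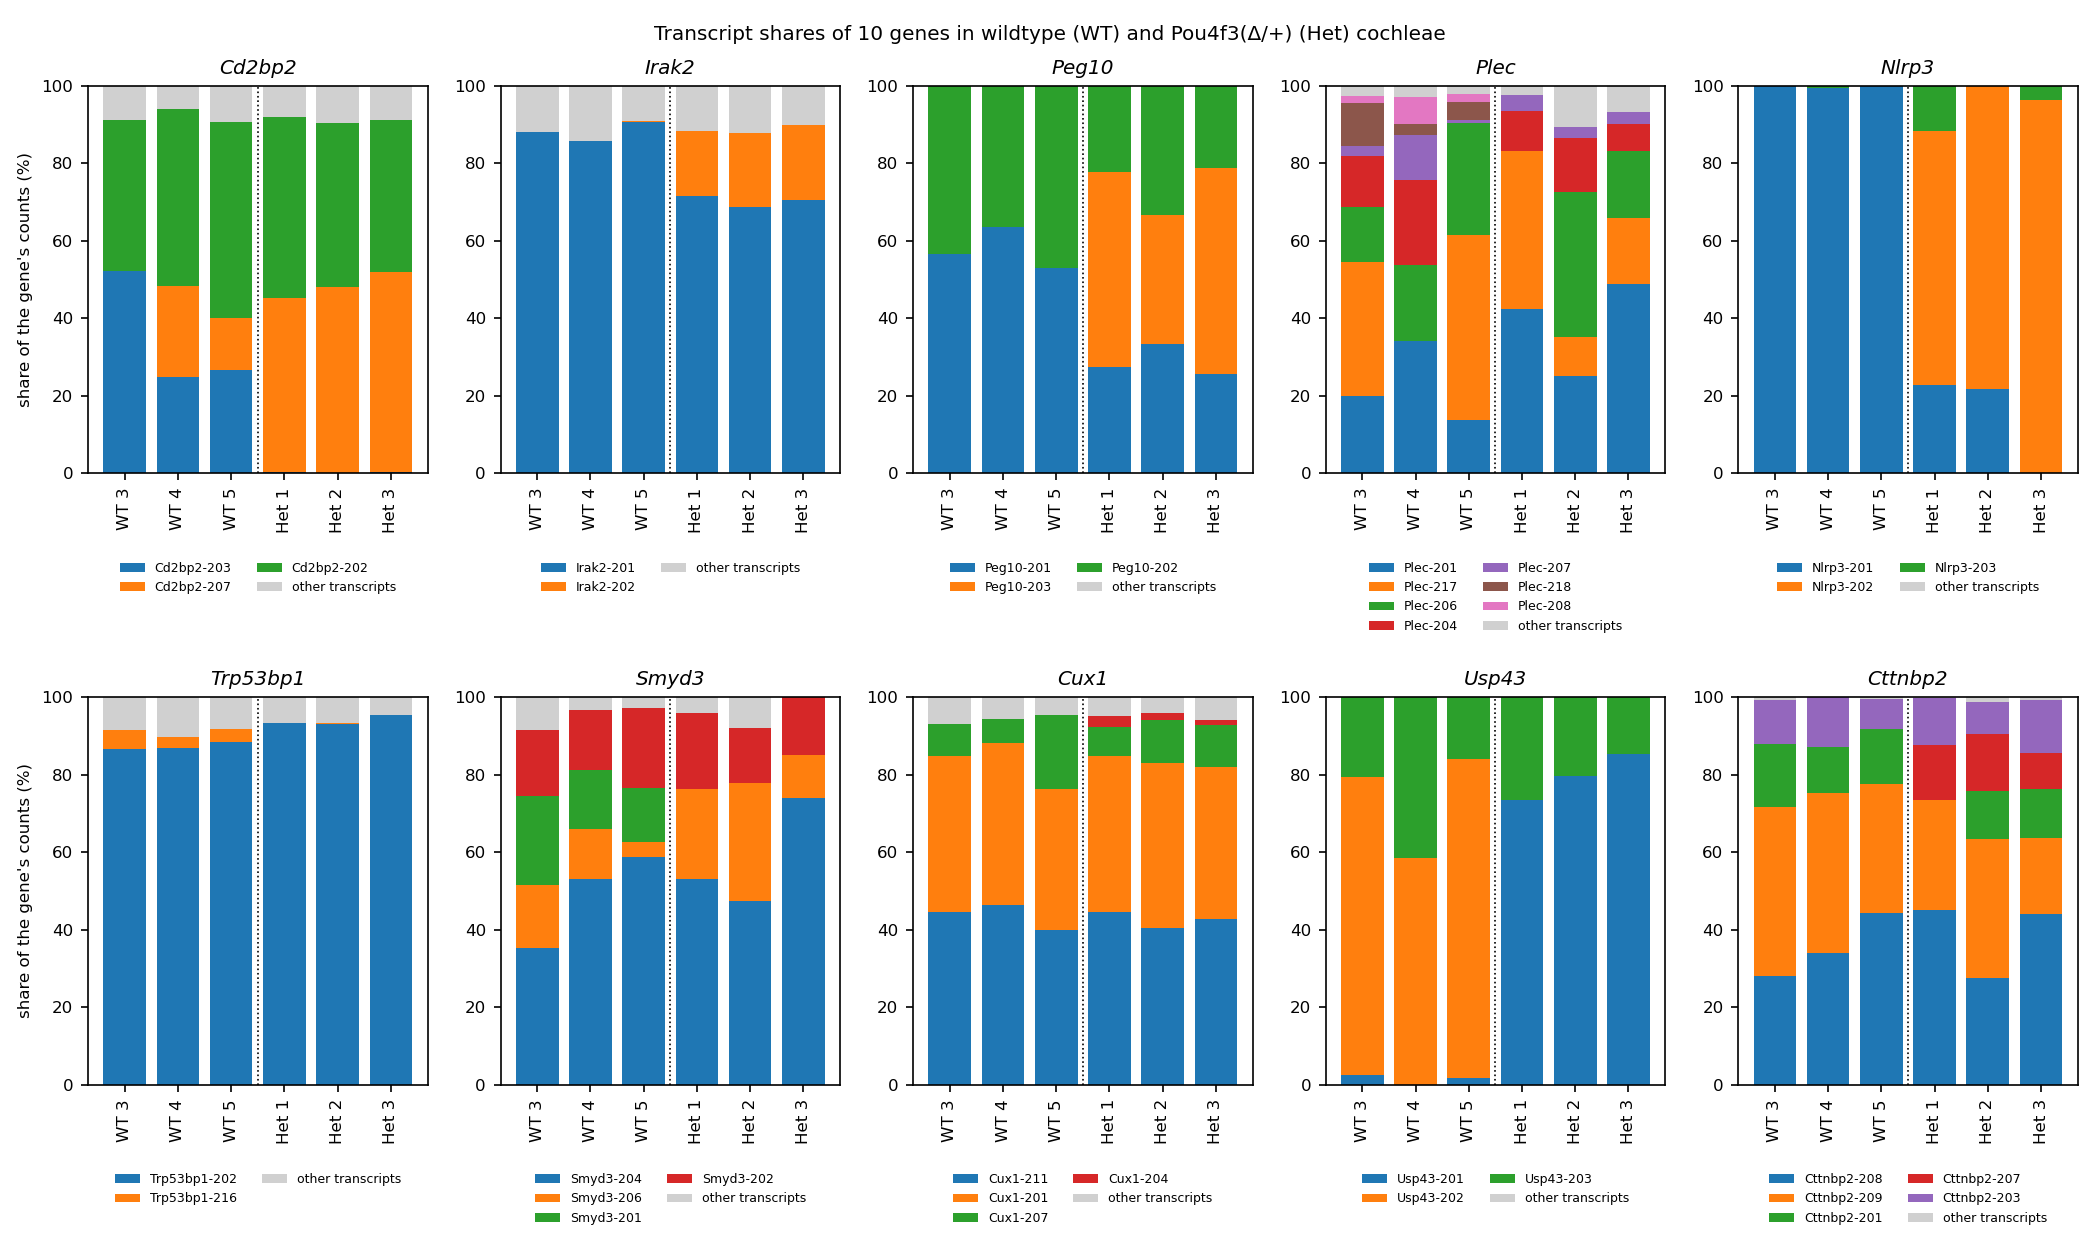
Share of each gene's counts (vertical axis, percent) taken by its named transcripts in the 3 wildtype (WT) and 3 *Pou4f3(Δ/+)* (Het) samples, 1 panel a gene, with all other transcripts in grey. In *Nlrp3* and *Usp43* one colour gives way to another across the dotted line between the genotypes, in *Irak2* and *Peg10* a colour is added, and in *Plec* the colours change as much between samples of a genotype.

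The summed counts of the genes separate an exchange of transcripts from a change of the gene. None of the 10 gene sums parted: the CPM ranges of the genotypes overlapped in 10 of 10, while they did not overlap in 12.7% of the 17136 genes tested. *Nlrp3* had 8.05, 8.82 and 11.1 CPM in wildtype and 7.07, 6.88 and 9.75 in *Pou4f3(Δ/+)*, that is -0.24 ± 0.20 on the log2 scale (SE, n = 3 a genotype; 95% interval -0.69 to 0.21). *Peg10* had 8.16, 12.2 and 10.6 CPM and 14.9, 12.6 and 9.55, that is 0.27 ± 0.21 on the log2 scale (95% interval -0.20 to 0.73). The lowest *Pou4f3(Δ/+)* sample of *Peg10* lay below 2 of the wildtype samples. *Cd2bp2* had 87.4, 82.6 and 85.8 CPM and 79.5, 87.6 and 80.2, and its interval of -0.21 to 0.12 was the narrowest. *Irak2* had 27.5, 26.2 and 27.3 CPM and 28.8, 31.5 and 24.4 (log2 fold change 0.06 ± 0.11). *Usp43* had 2.04, 2.43 and 3.05 CPM and 2.60, 2.88 and 2.15, with the widest interval, -0.58 to 0.63, over 32.2 to 51.6 counts a sample. In these 5 genes transcripts changed places while the gene sums overlapped. The intervals of *Usp43*, *Peg10* and *Nlrp3* were wide, and reached 0.63, 0.73 and -0.69 on the log2 scale. With 1 sample left out at a time the log2 fold change of *Peg10* ran from 0.10 (without *Pou4f3(Δ/+)* sample 1) to 0.43 (without *Pou4f3(Δ/+)* sample 3), with 0.12 without wildtype sample 3 and 0.41 without wildtype sample 4. That of *Nlrp3* ran from -0.41 (without *Pou4f3(Δ/+)* sample 3) to -0.09 (without wildtype sample 5), with -0.15 and -0.16 without *Pou4f3(Δ/+)* samples 2 and 1, and was 0.02 when fitted on log2(FPKM + 0.5) with limma. *Irak2* ran from -0.02 (without *Pou4f3(Δ/+)* sample 2) to 0.16 (without *Pou4f3(Δ/+)* sample 3), *Usp43* from -0.11 (without wildtype sample 3) to 0.19 (without wildtype sample 5) and *Cd2bp2* from -0.09 (without *Pou4f3(Δ/+)* sample 2) to -0.02 (without *Pou4f3(Δ/+)* sample 1). Without *Pou4f3(Δ/+)* samples 1 and 2, which leaves sample 3 alone, the sign of the log2 fold change turned in 5 of the 10 genes, to -0.11 for *Peg10*, 0.07 for *Nlrp3*, -0.15 for *Irak2*, 0.24 for *Smyd3* and -0.22 for *Usp43*. It was -0.09 for *Cd2bp2*, -0.08 for *Plec*, -0.05 for *Trp53bp1*, 0.15 for *Cux1* and -0.03 for *Cttnbp2*.

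The other 5 gene sums overlapped as well. The log2 fold changes were -0.13 ± 0.09 for *Plec*, -0.11 ± 0.11 for *Trp53bp1*, -0.03 ± 0.15 for *Smyd3*, 0.04 ± 0.08 for *Cux1* and -0.11 ± 0.15 for *Cttnbp2* (SE, n = 3 a genotype), and each 95% interval held 0. With 1 sample left out at a time *Smyd3* ran from -0.17 (without *Pou4f3(Δ/+)* sample 3) to 0.06 (without *Pou4f3(Δ/+)* sample 1), *Cttnbp2* from -0.23 (without *Pou4f3(Δ/+)* sample 1) to 0.04 (without *Pou4f3(Δ/+)* sample 2) and *Cux1* from -0.02 (without wildtype sample 5) to 0.08 (without wildtype sample 4). *Trp53bp1* ran from -0.19 (without wildtype sample 3) to -0.02 (without *Pou4f3(Δ/+)* sample 2) and *Plec* from -0.17 (without wildtype sample 4) to -0.07 (without *Pou4f3(Δ/+)* sample 2). Over the 10 genes 4 sums were higher and 6 lower in *Pou4f3(Δ/+)*, with a median absolute log2 fold change of 0.086 against 0.12 for all genes tested. In the whole table edgeR's quasi-likelihood test with Benjamini-Hochberg adjustment called 0 genes (0.0%) at 0.05. Unadjusted p-values were under 0.05 for 1309 genes, and DESeq2 called 62. With 1 sample left out edgeR called 193 genes (114 higher and 79 lower) without *Pou4f3(Δ/+)* sample 3, 3 without wildtype sample 4 and 0 without each of the others, and none of the 10 was among the genes called in any of these fits.

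**Figure D3:**
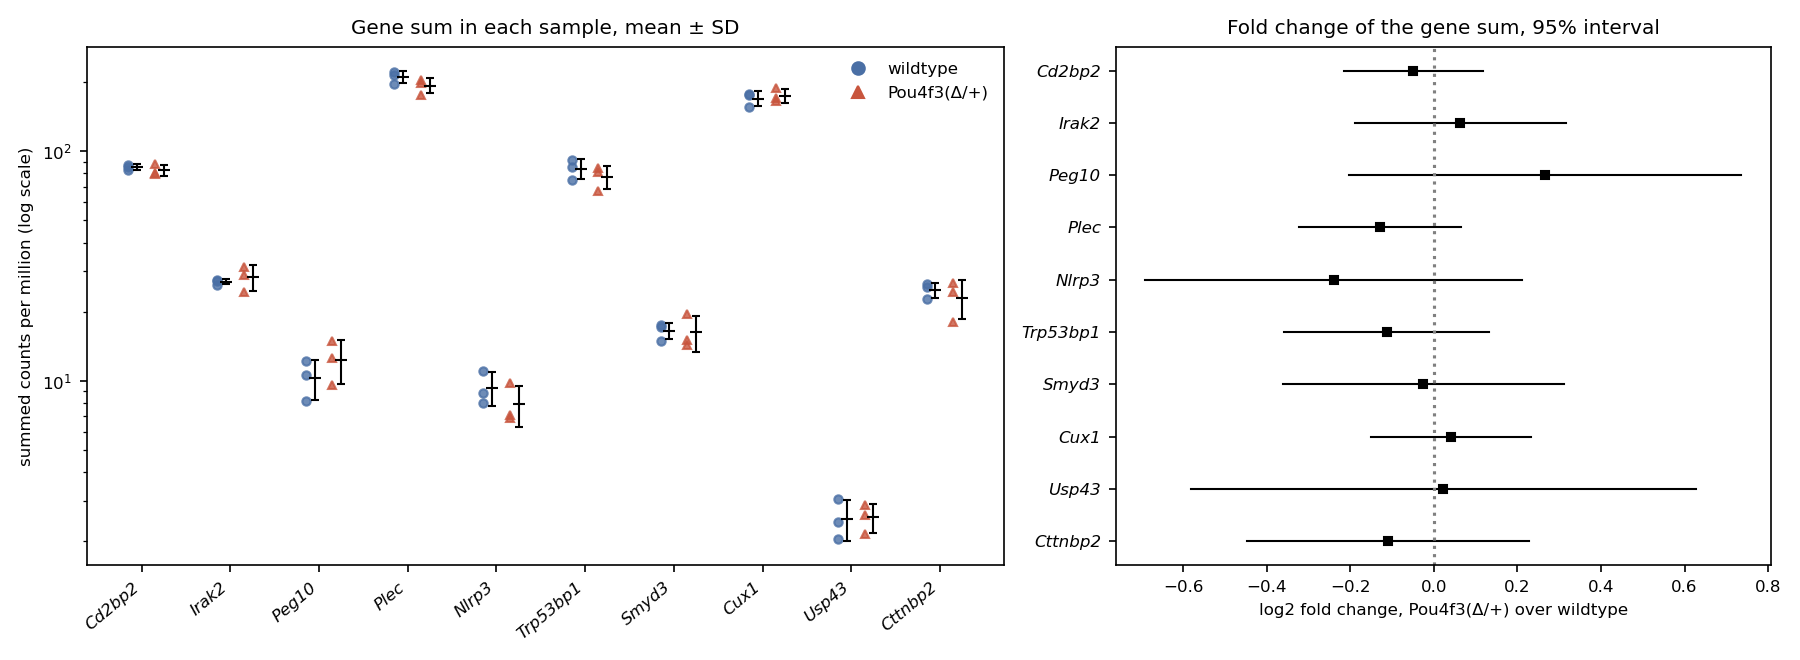
Left, summed counts scaled to depth, as CPM (logarithmic axis), of the 10 genes in each wildtype (circles) and *Pou4f3(Δ/+)* (triangles) sample, with the mean and SD as black bars; right, the log2 fold change of each gene sum (squares) with its 95% interval (lines). The genotypes overlap in all 10 genes and every interval crosses 0, from the narrow one of *Cd2bp2* to that of *Usp43*, -0.58 to 0.63.

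The distance between 2 samples in all transcripts of a gene at once was measured as the share of counts that would have to move to another transcript to make them equal. A gene parted by genotype when the smallest of its 9 distances between genotypes was above the largest of its 6 distances within them, which held for 43 of 10200 genes with a mean of at least 100 counts (0.422%). Of the 10 genes 9 had that many counts, and *Irak2*, *Peg10* and *Nlrp3* parted. Distances between genotypes were 76.7% to 99.9% for *Nlrp3* against at most 30.7% within them, 33.3% to 53.1% against 19.8% for *Peg10*, and 17.8% to 22.5% against 5.13% for *Irak2*. *Usp43*, with a mean of 40.7 counts, was below the minimum, and its distances were 73.5% to 85.4% between and at most 25.6% within genotypes.

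In the other 6 genes at least 1 pair of samples of the same genotype was as far apart as a pair across genotypes. *Cd2bp2* had distances of 25.5% to 55.5% between genotypes, and 2 of its wildtype samples were 30.4% apart. *Trp53bp1* missed by a small margin, with 6.85% to 10.5% between and at most 6.91% within. For *Plec*, the largest distance within a genotype (59.2%, between 2 wildtype samples) exceeded every distance between genotypes (30.1% to 49.3%). *Cux1* behaved likewise (13.5% within and 3.96% to 12.7% between). In *Smyd3* (27.3% within, 16.2% to 38.8% between) and *Cttnbp2* (22.2% and 15.3% to 32.3%) the ranges overlapped. Over all 10200 genes the median of the mean distance was 5.74% within genotypes and 5.80% between them, beside 10.97% and 26.3% for the 9 of the 10 genes that had enough counts. The 10 genes were chosen on this contrast, so nothing is read from that difference. With 1 wildtype sample left out at a time *Cd2bp2* or *Trp53bp1* or both joined the genes that parted, *Trp53bp1* did so without *Pou4f3(Δ/+)* sample 2, and both did without *Pou4f3(Δ/+)* samples 1 and 2.

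**Figure D4:**
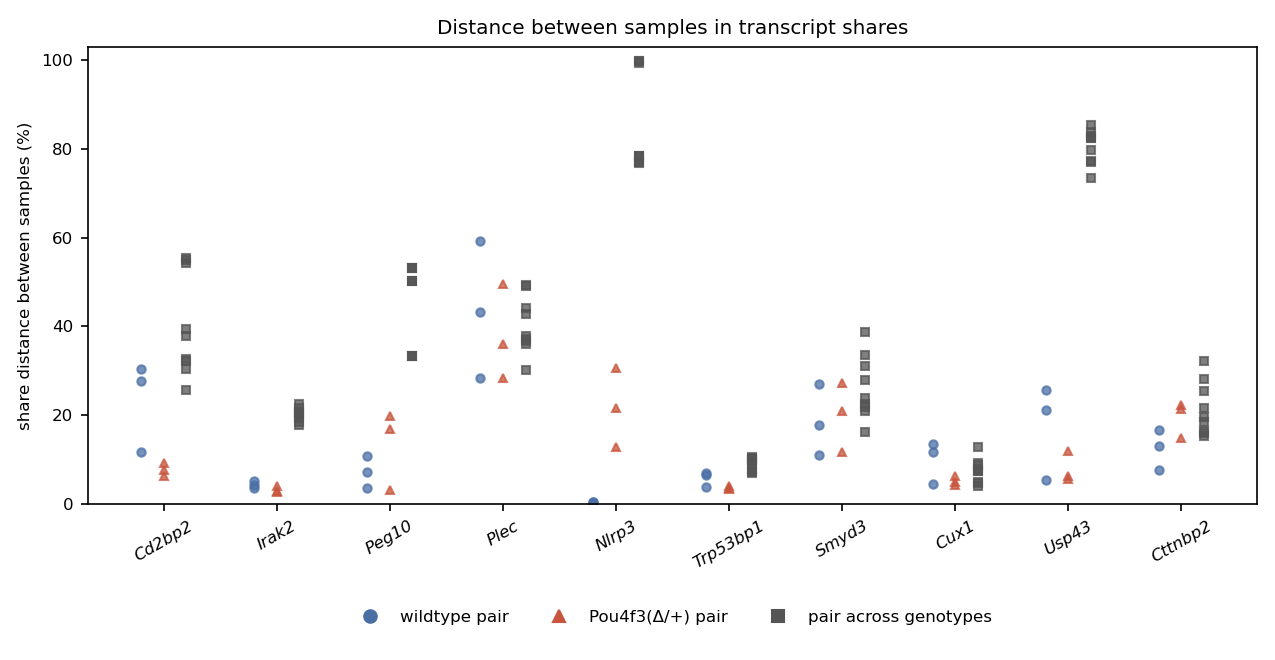
Distance between 2 samples in the transcript shares of a gene (vertical axis, percent of counts) for every pair of wildtype samples (circles), of *Pou4f3(Δ/+)* samples (triangles) and across genotypes (squares). The squares lie above all other points in *Irak2*, *Peg10*, *Nlrp3* and *Usp43*, and within the range of the others in *Plec*, where wildtype pairs reach 59.2%.

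Transcripts also went from the floor to a high count between samples of a single genotype. Of the 33310 transcripts, 3846 (11.5%) had at most 3 counts in one sample and at least 30 in another of the same genotype, 2337 in wildtype and 2320 in *Pou4f3(Δ/+)*. This needs only 1 sample of each kind, while the all-or-none rule, met by 23 (0.069%), needs all 6 samples to comply, so the counts of the 2 rules cannot be set against each other. Among the 49 transcripts of the 10 genes with that many counts in a sample, 11 (22.4%) did so within a genotype. Of these, 5 belong to *Plec* (Plec-202, Plec-204, Plec-206, Plec-209 and Plec-217) and 3 to *Cd2bp2* (Cd2bp2-201, Cd2bp2-204 and Cd2bp2-207). Trp53bp1-201, Cux1-213 and Cttnbp2-201 make up the rest. *Irak2*, *Peg10*, *Nlrp3*, *Smyd3* and *Usp43* had no such transcript, although Nlrp3-201, with 28.5, 22.7 and 0.18 counts in *Pou4f3(Δ/+)*, missed the limit of 30 by a small margin.

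Most of the all-or-none transcripts have little sequence of their own. Of the possible 300-base fragments of a transcript, the share that fits no other listed transcript of the gene had a median of 26.2% over the 33193 transcripts found in the annotation. It was 5.11% over the 23 all-or-none transcripts and 2.81% over the 9 of the 10 genes. Under 10% lay 30.6%, 78.3% and 77.8% of these sets. A transcript that is the only one listed for its gene counts as wholly its own here. The largest values among the 9 were 11.9% for Trp53bp1-216 and 11.1% for Irak2-202, followed by 8.64% for Cttnbp2-207 and 6.17% for Smyd3-201. Peg10-203 and Plec-208 had none, and Nlrp3-202, Plec-218 and Cux1-204 had 1.91%, 1.61% and 2.81%. The part of this in the counts was not tested.

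**Figure D5:**
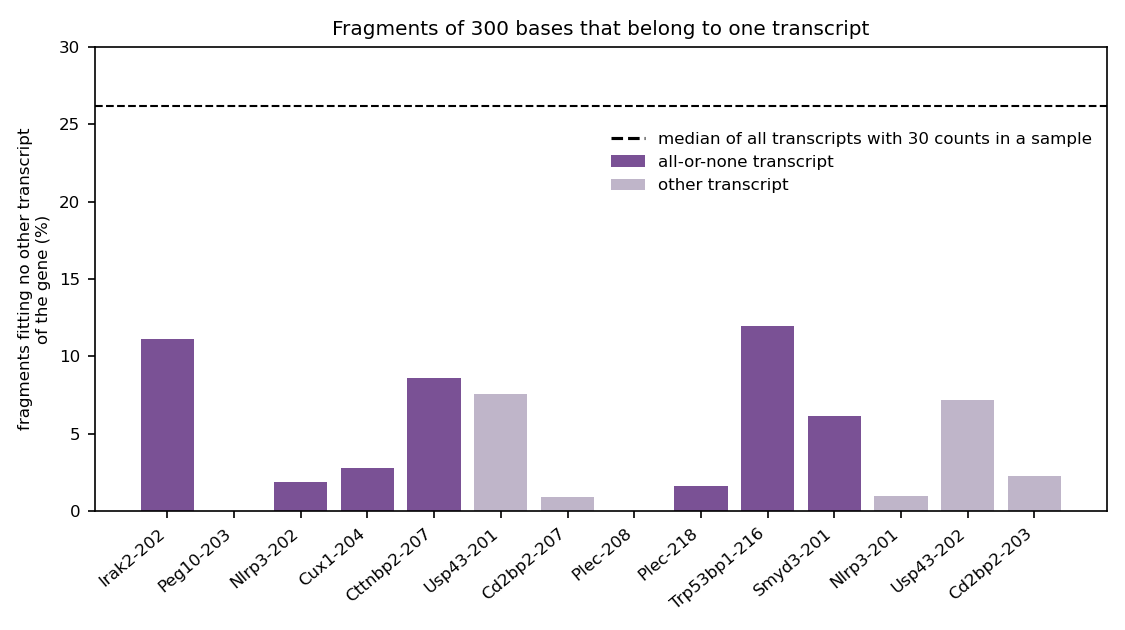
Share of the possible 300-base fragments of a transcript that fit no other listed transcript of its gene (vertical axis, percent) for the same 14 transcripts as in the plot of counts, all-or-none transcripts in dark bars and others in light bars. All bars lie below the dashed line, the median of 26.2% over all transcripts with 30 counts in a sample, and Peg10-203 and Plec-208 are at 0.

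The most similar patterns elsewhere in the table were the all-or-none transcripts of other genes with the highest counts. With counts in *Pou4f3(Δ/+)* these were Usp8-203 (68.3, 155 and 72.8 counts, against at most 0.069 in wildtype), Tmem237-202, Casc3-201 and Dhdds-201, the only 4 outside the 10 genes. *Usp8* encodes a deubiquitinase of endosomes. With counts in wildtype the leading 5 were Axin1-202 (180.3, 141 and 156 counts, against at most 0.77 in *Pou4f3(Δ/+)*), Fbxw11-201 (97.8, 497 and 256, against at most 0.46), Aup1-208, Gm4070-202 and Gm21985-201. *Axin1* encodes a scaffold of the β-catenin destruction complex, and *Fbxw11* an F-box protein of a ubiquitin ligase. The gene sums of *Axin1*, *Fbxw11* and *Usp8* had log2 fold changes of 0.01, -0.09 and -0.08. Those of *Casc3*, *Dhdds* and *Aup1* had 0.10, -0.01 and 0.02, and those of *Tmem237* and *Gm4070* had -0.44 and -0.25. *Gm21985* has 1 listed transcript, with 39.5, 51.6 and 41.2 counts in wildtype and 0 in every *Pou4f3(Δ/+)* sample, so that there the gene sum itself was all-or-none.

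Splicing regulators, the proteins that select splice sites, were examined as a group. Of 63 listed, 62 had enough counts to be tested (*Celf1* did not), and 0 passed an adjusted p of 0.05 in edgeR in either direction (4, or 6.45%, with an unadjusted p under 0.05, beside 7.64% of all genes tested). Of the 62, 39 had a higher and 23 a lower value in *Pou4f3(Δ/+)*, with a median log2 fold change of 0.04 against -0.003 for all genes. The smallest p-values belonged to *Srrm3*, a regulator of neuronal microexons, and to *Srsf7* and *Srsf4*, of the serine- and arginine-rich splicing factors. *Srrm3* had 12.9, 14.99 and 15.3 CPM in wildtype and 11.1, 9.76 and 11.03 in *Pou4f3(Δ/+)* (log2 fold change -0.44 ± 0.13, SE). *Srsf7* and *Srsf4* had log2 fold changes of 0.20 ± 0.08 and 0.16 ± 0.07 (SE). The edgeR adjusted p was 0.64 for each of the 3.

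Genes of the inflammasome and of interleukin-1 and Toll-like receptor signalling, the pathways of *Nlrp3* and *Irak2*, gave the same count. All 48 listed were tested, 0 passed in edgeR (3, or 6.25%, with an unadjusted p under 0.05, beside the same 7.64%), and 27 were higher and 21 lower with a median log2 fold change of 0.03. The interleukin-1 receptor *Il1r1* had 13.5, 17.6 and 19.6 CPM in wildtype and 24.0, 25.8 and 18.9 in *Pou4f3(Δ/+)* (0.44 ± 0.17, SE). The receptor of double-stranded RNA *Tlr3* had 35.8, 32.8 and 52.4 CPM and 31.7, 26.0 and 31.3 (-0.45 ± 0.17, SE), and *Tlr1*, which recognises bacterial lipopeptides together with Tlr2, had 15.7, 15.5 and 13.96 CPM and 26.0, 31.0 and 13.1 (0.64 ± 0.27, SE). The adjusted p was again 0.64 in edgeR. *Tlr1* was high in *Pou4f3(Δ/+)* samples 1 and 2 alone, and was called when sample 3 was left out.

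Markers of the cell types that a cochlea with its bone can hold were summed per sample. Summed CPM of 10 hair cell markers, all detected, was 129 to 133 in wildtype and 123 to 141 in *Pou4f3(Δ/+)*. Summed CPM of 9 B cell markers was 333 to 374 in wildtype and 589, 654 and 384 in *Pou4f3(Δ/+)* samples 1, 2 and 3. Summed CPM of 7 erythroid markers was 8617 to 10045 in wildtype and 11878, 13379 and 9304 in *Pou4f3(Δ/+)* samples 1, 2 and 3, so that samples 1 and 2 lay above all wildtype samples and sample 3 among them. Neutrophil markers (9 genes) summed to 12757 to 15165 CPM in wildtype and 12300 to 14946 in *Pou4f3(Δ/+)*, macrophage markers (8 genes) to 2568 to 3445 and 2583 to 2922, and osteoblast markers (7 genes) to 1667 to 2428 and 1399 to 1738. The markers above every wildtype sample in each *Pou4f3(Δ/+)* sample were 5 of 9 for B cells, 2 of 7 for erythroid cells and 1 of 10 for hair cells, and 2 of 7 osteoblast markers were below, beside 12.7% of all genes that did not overlap in either direction. No other marker parted, and no marker of these lists was at 0. *Nlrp3*, *Irak2* and *Tlr1* are expressed in blood cells as well, and the part of these cells in the shares was not tested.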

How the data were processed

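Total RNA of whole cochleae was made into libraries with an insert of about 300 bases and sequenced on an Illumina HiSeq. The authors deposited 1 table a sample, which gives for each transcript an expected count, an estimate that need not be whole (82.2% of counts above 0 were not) and is not normalized. The authors also deposited FPKM values, relative to transcript length and sequencing depth. The submitters' processing notes name mm8 and DESeq2. The aligner, the counting program and the annotation are not given in the sources used here. The tables hold transcript identifiers and gene symbols but no coordinates. Of the 128603 identifiers 127975 (99.51%) were found in GENCODE M21 (GRCm38), from which names, positions and sequences were taken.

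The 10 genes, the 2 gene lists and the marker lists were chosen with earlier results of these data known. All transcripts of each gene were taken. Named are those with at least 10% of the gene's counts in any sample or that met the all-or-none rule, the 3 genes of each list with the smallest p, and up to 5 all-or-none transcripts of other genes in each direction; others named, such as Plec-202 and Trp53bp1-201, were added after their values were seen. Counts were summed per gene symbol, rounded and fitted with edgeR 4.0.16 in R 4.3.3 (filterByExpr with a minimum count of 10 and a minimum total of 15, TMM, quasi-likelihood test, Benjamini-Hochberg adjustment). The test was checked on simulated counts. Alternatives were DESeq2 1.42.0, DESeq2 size factors, no filter, limma 3.58.1 on log2(FPKM + 0.5), other limits of each rule and each sample left out. Transcript shares were computed with pandas 2.3.3. The intervals of gene sums rest on the spread between samples. The limit of 3 counts allows for counting error alone, and no molecular identifiers are mentioned in the sources used here.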

Additional observations from a re-analysis of the deposited data

How the results depend on the processing

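The 9 all-or-none transcripts of the 10 genes remained with depth-scaled counts (10 transcripts). A floor of 5 counts, a minimum of 10 counts or a sample left out only loosens the rule. The same 9 are therefore kept there by construction (9 to 11 transcripts). A floor of 1 count kept 6 and a minimum of 100 counts kept 0. Over all genes the 23 transcripts became 73 with a minimum of 10 counts, 1 with a minimum of 100, 41 to 66 with a sample left out and 288 without *Pou4f3(Δ/+)* samples 1 and 2, an alternative chosen after seeing the data. Genes whose shares parted numbered 27 of 7888 with a gene mean of at least 300 counts, where *Irak2* was the 1 gene of the 10 left, 189 to 242 with a sample left out (3 to 5 of the 10) and 1346 without *Pou4f3(Δ/+)* samples 1 and 2 (5 of the 10). Fewer samples give fewer distances to satisfy, so these counts rise by construction. With shares of FPKM 47 genes parted, and *Irak2*, *Nlrp3* and *Peg10* were the members. With shares of counts and a gene mean of at least 30 counts, 48 of 11575 genes parted, and *Usp43* joined these members.

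For the gene sums, DESeq2 called 62 genes, edgeR without a filter 9, edgeR with a sample left out 0 to 193 (193 without *Pou4f3(Δ/+)* sample 3, 3 without wildtype sample 4) and 6 without *Pou4f3(Δ/+)* samples 1 and 2; the cause was not tested, and none of the 10 genes was called in any. The lists held 0 to 1 called gene with a sample left out, *Tlr1* without *Pou4f3(Δ/+)* sample 3. Of 110 alternative fold changes of the 10 gene sums, 105 moved by less than the SD between replicates. The sign changed in 17, spread over 7 genes, and held in *Cd2bp2*, *Plec* and *Trp53bp1*; the largest absolute value was 0.43. The median absolute log2 fold change of the 10 ran from 0.063 to 0.15 with a sample left out. No paired analysis was possible because the groups share only the number 3. A transcript at 3 counts or fewer cannot be told from absent at this depth.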
